A study of Mus musculus with 16 samples.

Results

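Expression of 47 genes of the SWI/SNF, CHD, NuRD and INO80 families of chromatin remodellers was followed in 16 whole mouse embryos, 1 embryo per array. The genes were taken by name, as subunits and relatives of these complexes, and their probe sets were found through the gene symbols of the array's annotation. A probe set is a group of short probes that report 1 stretch of a transcript. All 47 genes were measured, of 18193 with a symbol, by 120 of the 45037 probe sets, and 35 of them by more than 1. By complex, 4 probe sets reported the 2 SWI/SNF ATPases, 17 the 7 core subunits and 13 the 6 subunits specific to the BAF or PBAF form. A further 12 reported 6 actin-like and PHD finger subunits, 19 the 8 CHD genes, 27 the 10 NuRD subunits, 15 the 5 INO80 and SWR genes and 13 the 3 other SNF2 genes.

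The 4 groups were BALB/cCrl embryos homozygous for the gene trap allele Cecr2Gt45Bic, BALB/cCrl wild types, FVB/N embryos homozygous for the same allele, and FVB/N wild types, with 4 female embryos each. They were called mutants and wild types here. All embryos had 11 to 14 somites, before closure of the cranial neural tube, and had been freed of extraembryonic membranes. The allele had been crossed onto each strain for more than 10 generations. Heterozygous parents were crossed for the BALB/cCrl mutants, but homozygous parents for the FVB/N ones, so that in FVB/N the genotype and the cross cannot be told apart. Strain and cross likewise cannot be told apart between mutants of the strains, nor in the difference between the strains' genotype effects. Litters and the somite number of each embryo are not known here.

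Chromatin remodellers use ATP to slide, eject or exchange nucleosomes, the DNA and histone units of chromatin, and so set which DNA other proteins can reach. SWI/SNF complexes carry 1 of 2 alternative ATPases, Smarca4 or Smarca2, on a core built on Smarcc1 and Smarcc2, while NuRD joins a CHD ATPase to histone deacetylases. INO80 and SWR complexes move nucleosomes and exchange histone variants. Cecr2 itself, a bromodomain protein, works with a different family, the ISWI remodellers. In mice, loss of Smarcc1 function and loss of 1 copy of Smarca4 are both known to give exencephaly, an open cranial neural tube. Exencephaly is also a known defect of Cecr2 mutants, but its frequency in mutants of each strain was not examined here.

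The promoters of Smarca4 and Smarcc1 are shown because these 2 partners had the largest strain differences of the SWI/SNF genes. They are RefSeq sequences of build GRCm38.p6, thus of the reference strain and not of BALB/cCrl or FVB/N, and run 5′ to 3′ up to the first annotated base of the gene. The Smarca4 stretch is chr9:21615919-21616105 and the Smarcc1 stretch chr9:110131774-110132023, both on the plus strand. Capitals mark CGCATGC or its reverse complement GCATGCG, letters found in the binding motif of the transcription factor NRF1.
Smarca4: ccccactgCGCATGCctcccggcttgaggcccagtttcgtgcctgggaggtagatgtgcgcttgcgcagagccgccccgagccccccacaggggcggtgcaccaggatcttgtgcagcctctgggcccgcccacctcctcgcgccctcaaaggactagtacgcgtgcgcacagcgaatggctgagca
Smarcc1: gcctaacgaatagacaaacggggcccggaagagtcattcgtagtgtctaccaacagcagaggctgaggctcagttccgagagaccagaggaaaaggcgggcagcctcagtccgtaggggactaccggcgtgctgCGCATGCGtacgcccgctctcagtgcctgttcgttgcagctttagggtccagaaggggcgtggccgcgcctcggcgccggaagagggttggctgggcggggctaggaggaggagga
Smarca4 held 1 match and Smarcc1 a pair that overlap, on opposite strands. Of the 39 members with a promoter in the RefSeq table, 3 held this motif on either strand (7.69%), Smarca4, Smarcc1 and Smarcb1, against 4.49% of 17492 promoters of protein-coding genes in windows of 300 bases. The GC box letters GGGCGG were held by 37 of the 39 (94.9%), against 46.3% of protein-coding promoters, and by both stretches shown. Neither stretch held CCAAT or TATAAA, searched on both strands. CCAAT was held by 16 of the 39 members' promoters (41.0%), against 6827 of the 17492, and TATAAA by 3 (7.69%), against 13.3%. These matches describe letters and not bound sites.

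Expression values were on a log2 scale as deposited, taken as normalised across the 16 arrays, so that a difference of 1 is a doubling. Values were compared between arrays for the same probe set and not between probe sets. As a mark of no transcript, 9 probe sets of Y-linked genes, read in these female embryos, gave 3.03 to 4.53. Of the 120 remodeller probe sets, 113 lay above that range on every array, and 1, an Ep400 probe set (1449610_at), never did. The trap was visible in the arrays: Cecr2 (1457039_at) averaged 5.95 ± 0.06 in BALB/cCrl mutants and 8.31 ± 0.24 in wild types of BALB/cCrl, and 6.24 ± 0.11 in FVB/N mutants and 8.24 ± 0.18 in FVB/N wild types (SD, n = 4 each). Each listed marker of neural tissue, paraxial mesoderm, heart, endothelium, primitive red cells and visceral endoderm was above the Y-linked range on every array. The mean level of 6 visceral endoderm markers ranged from 10.00 to 11.85 in BALB/cCrl mutants, from 10.53 to 11.39 in wild types of BALB/cCrl, from 9.06 to 11.41 in FVB/N mutants and from 10.62 to 11.55 in FVB/N wild types. Markers of decidua, 4 of 4, were also above it, with mean levels of 6.56 to 7.49, as were 3 of 4 immune cell markers, while Ptprc, the other one, stayed within it. Of 4 trophoblast markers only Tpbpa was measured, and it stayed within the range. Each marker was read by the brightest probe set of its gene. Between mutants of the strains limma called 3 of 4 primitive red cell markers and 1 of 4 heart markers, against 12.1% of all genes. The mean level of the red cell markers was 11.01 to 11.39 in BALB/cCrl mutants and 10.57 to 11.10 in FVB/N mutants. Between wild types limma called 2 heart markers and 1 each of paraxial mesoderm and decidua, against 7.25% of all genes. The part of these markers in the strain differences was not tested. In whole embryos, fewer cells of a type and less RNA per cell cannot be told apart.

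Arrays of a group correlated at 0.995 to 0.998, and the array of FVB/N mutant 4 stood apart, for the remodellers and over all probe sets. It was the lowest of the 16 arrays in 36 of the 120 remodeller probe sets (30.0%), against 10.0% of all probe sets. It was the highest in 10 of the 120 (8.33%), against 10.8% of all probe sets. Over all probe sets it held the largest share of any array, both as lowest and as highest. Its ratio of 3′ to 5′ Gapdh signal, a measure of RNA integrity, was the highest of the 8 FVB/N arrays, at 0.02 on the log2 scale in the authors' table of that pair of groups, where the others ran from -0.10 to -0.01. For the other 2 control transcripts it was not the highest, at 0.59 for Actb (others 0.49 to 0.68) and at 1.93 for Tfrc (others 1.71 to 2.15). BALB/cCrl mutant 3 was in turn the highest of the 16 arrays in 25 of the 120 (20.8%), against 6.40% of all probe sets. Counts without each of these arrays are given with the strain comparison.

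The first question was whether the trap altered these remodellers, mutants against wild types within each strain. No remodeller gene passed the test in either strain. In limma's fit of all 16 arrays, with p-values adjusted over all probe sets and called under 0.05, 0 of the 120 probe sets were called in BALB/cCrl, against 0.02% of all probe sets, and 0 in FVB/N, against 0.595%. At an unadjusted p under 0.05 the counts were 15 of 120 in BALB/cCrl, against 9.54% of all probe sets, and 25 of 120 in FVB/N, against 12.1%. The 95% interval of the mutant to wild type difference lay within 2-fold either way for 120 of 120 probe sets in BALB/cCrl and for 118 of 120 in FVB/N, and within 1.5-fold for 113 and 114. The median difference over the 120 was 0.04 in BALB/cCrl and -0.01 in FVB/N, where all probe sets had medians of 0.01 and 0.01.

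**Figure D1:**
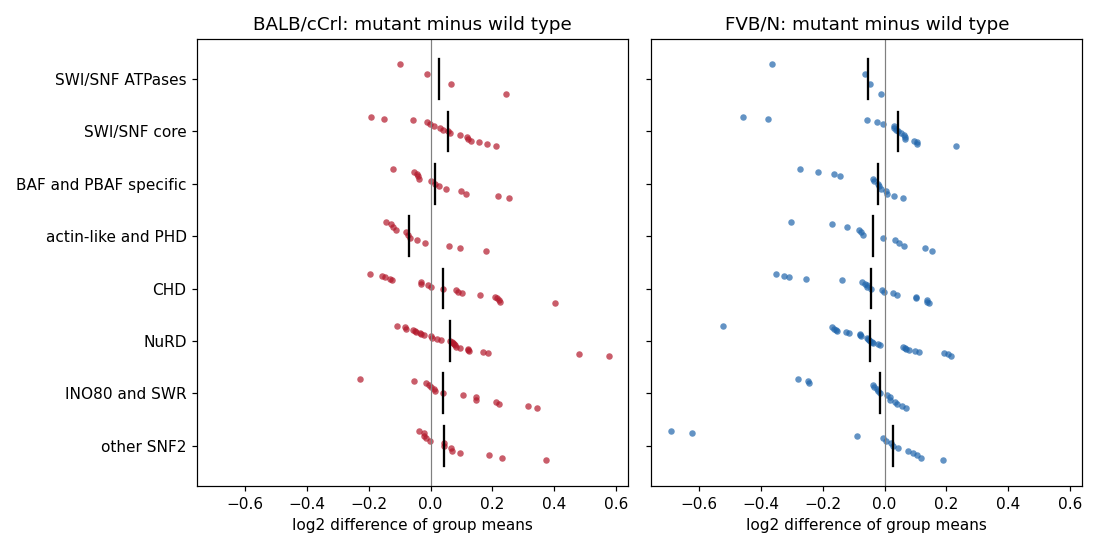
Difference of mutant minus wild type group means (log2, horizontal axis) for the 120 remodeller probe sets, 1 point each, by complex, in BALB/cCrl (left) and FVB/N (right), with vertical bars at the median of each complex. No point was called, and the outermost points are Rbbp4 at 0.58 in BALB/cCrl and Atrx at -0.69 in FVB/N.

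In BALB/cCrl embryos the smallest p of all 120 belonged to Chd6, a CHD remodeller of broad expression. Its probe set 1431047_at read 5.93, 5.53, 6.02 and 5.67 in mutants and 5.16, 5.49, 5.55 and 5.34 in wild types, a difference of 0.40 (SE 0.11, limma adjusted p = 0.31). The groups overlapped by 1 mutant array. Rbbp4, the histone-binding chaperone shared by NuRD and other complexes, differed by 0.58 (SE 0.17, limma adjusted p = 0.34) in probe set 1456260_at. It read 7.77, 7.79, 7.79 and 7.21 in mutants and 6.73, 6.88, 7.68 and 6.97 in wild types, so that wild type 3 stood among the mutants. Without wild type 3 the difference was 0.78 (SE 0.13), and the limma adjusted p of 0.0499 fell just under the threshold.

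For the other complexes, the smallest p in BALB/cCrl came from probe sets whose differences were smaller. Arid2, the DNA-binding subunit of PBAF, differed by 0.25 and Smarca4 by 0.25, with limma adjusted p of 0.38 and 0.53. Smarcb1, the core subunit known as a tumour suppressor, differed by -0.19 (SE 0.07, limma adjusted p = 0.39) in 1435856_x_at, with mutants at 9.51 to 9.63 and wild types at 9.72 to 9.85. Ep400 (1426860_at) differed by 0.21, Actl6a (1456730_x_at) by -0.14 and Atrx (1420947_at) by 0.37, with limma adjusted p of 0.40, 0.40 and 0.53. Mutant and wild type arrays did not overlap in 5 probe sets. These were 1 higher in mutants (Smarcc1 1423416_at, 0.13), against 1.89% of all probe sets, and 4 lower (Smarcb1, Actl6a, the PBAF bromodomain subunit Brd7 and the deacetylase Hdac1, -0.19 to -0.11), against 3.24%.

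In FVB/N embryos the smallest p belonged to Gatad2b, which bridges the methyl-DNA-binding and CHD subunits of NuRD. Probe set 1425075_at read 9.63, 9.89, 9.68 and 9.20 in mutants and 9.91, 10.14, 10.30 and 10.14 in wild types, with no overlap, a difference of -0.52 (SE 0.13, limma adjusted p = 0.064). The highest mutant lay just below the lowest wild type. Smarcc1 (1423416_at), the scaffold subunit of SWI/SNF, read 11.54, 11.76, 11.96 and 11.17 in mutants and 11.86, 12.13, 12.22 and 12.05 in wild types. The difference was -0.46 (SE 0.11, limma adjusted p = 0.064), and mutant 3 lay above wild type 1. Atrx, an X-linked remodeller of repeats and heterochromatin, read 7.06, 7.45, 6.99 and 6.86 in mutants and 7.50, 7.64, 8.08 and 7.90 in wild types in 1420947_at. The groups did not overlap, and the difference was -0.69 (SE 0.18, limma adjusted p = 0.094).

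These 3 probe sets lay close enough to the threshold that single choices moved them across it. With each array centred on its median, Smarcc1 and Gatad2b were called in FVB/N (limma adjusted p = 0.048 and 0.0499), and with only the 8 FVB/N arrays in the fit, Atrx was (limma adjusted p = 0.039). Without 1 array, Smarcc1 was called when FVB/N mutant 3 was left out (difference -0.57, limma adjusted p = 0.015) or FVB/N wild type 1 (limma adjusted p = 0.0496). Gatad2b was called when FVB/N mutant 2, BALB/cCrl mutant 2 or BALB/cCrl mutant 4 was left out (limma adjusted p = 0.032, 0.046 and 0.035), and a Gatad2a probe set when FVB/N mutant 1 was (limma adjusted p = 0.049). Leaving out FVB/N mutant 4 gave 0 calls.

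The other complexes gave smaller differences in FVB/N. Chd2, an ATPase that helps deposit histone variants, differed by -0.32 (limma adjusted p = 0.15) in 1445843_at, Smarca4 (1426805_at) by -0.36 (0.20), and Pbrm1, the multi-bromodomain subunit of PBAF, by -0.27 (0.21). Srcap, the SWR ATPase, differed by -0.24 (limma adjusted p = 0.21), while Actl6a (1416569_at), the actin-like subunit of the progenitor form of SWI/SNF, differed by 0.15 (0.18). Groups did not overlap in 4 probe sets higher in mutants, against 3.68% of all probe sets, and in 5 lower, against 3.15%. No remodeller probe set was free of overlap in both strains. That count was not set against all probe sets, so it is not read as particular to the remodellers. The ratio of 3′ to 5′ signal was compared on the log2 scale for 3 control transcripts. For Gapdh it was higher in mutants of BALB/cCrl, at 0.02 in mutants and -0.02 in wild types of BALB/cCrl (exact permutation p = 0.029, two-sided, the smallest 4 against 4 allows) and the FVB/N values were -0.01 in mutants and -0.06 in wild types (exact permutation p = 0.057, two-sided). For Actb and Tfrc the mutant minus wild type differences were -0.07 and -0.05 in BALB/cCrl, opposite to Gapdh, and 0.03 and 0.11 in FVB/N (exact permutation p from 0.20 to 0.51, two-sided). The 6 p-values were not adjusted. The part of RNA integrity in these results was not tested.

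Neither the effect shared by the strains nor the difference between the strains' effects called a remodeller. For the mean of both genotype effects, 0 of 120 probe sets were called by limma, against 0.455% of all probe sets, and 18 had an unadjusted p under 0.05, against 13.7%. For the interaction, the BALB/cCrl effect minus the FVB/N effect, 0 of 120 were called, against 0.0755%, and 22 had an unadjusted p under 0.05, against 7.92% of all probe sets. The 7 smallest p of the interaction fell on Atrx, Arid2, Chd2, Smarcc1, Ep400, Gatad2b and Smarca4, with positive differences from 0.47 to 1.07 and limma adjusted p from 0.16 to 0.24. Atrx (1420947_at) had the largest, 1.07 (95% interval 0.53 to 1.61). Left without BALB/cCrl wild type 3, Atrx (1.24) and Rbbp4 (0.91) were called, with limma adjusted p of 0.029 and 0.038. Leaving out FVB/N mutant 1, the mean effect called 1 Chd1 probe set at -0.25 (limma adjusted p = 0.047).

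The second question was how the strains differed. Between mutants, BALB/cCrl against FVB/N, 22 of the 120 probe sets (18.3%) were called, against 10.8% of all probe sets. They fell in 16 of the 47 genes, where 16.9% of all genes had a call, though members had 2.55 probe sets per gene and all genes 1.92. Of these, 19 were higher in BALB/cCrl mutants, against 4.89% of all probe sets, and 3 lower, against 5.91%. Between wild types, 8 of 120 were called (6.67%), in 7 genes, against 6.74% of all probe sets and 10.6% of all genes, so that the share of probe sets was close to that of the array at large. Of the 8, 5 were higher in BALB/cCrl wild types, against 2.88%, and 3 lower, against 3.86%. The contrast of mutants and that of wild types hold different arrays. Mutants of the strains also came from different crosses, so that strain and cross cannot be told apart between them. Since no interaction passed the test, the 2 strain differences of any 1 probe set were not shown to differ.

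**Figure D2:**
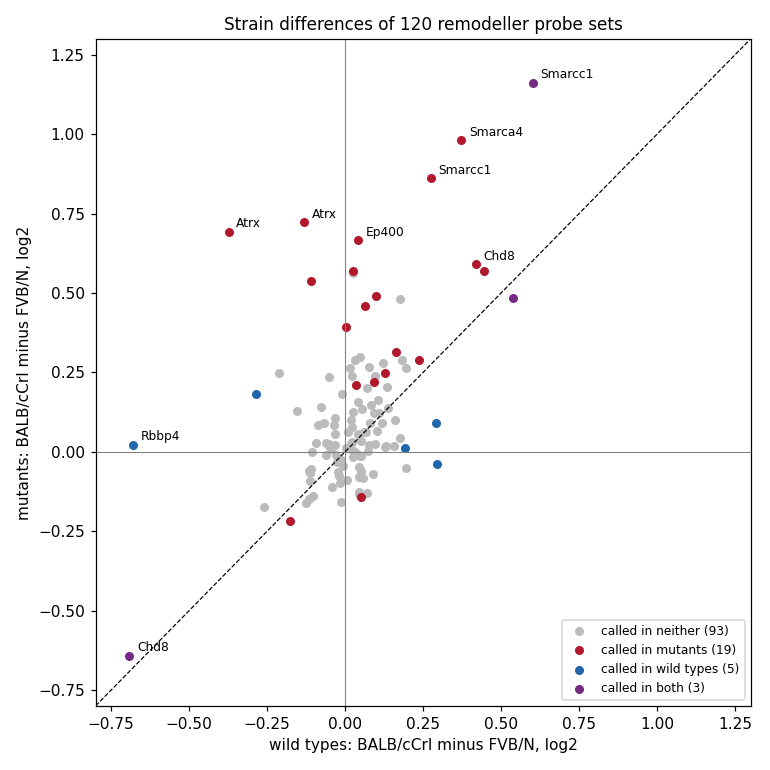
Strain difference, BALB/cCrl minus FVB/N (log2), of the 120 remodeller probe sets in mutants (vertical axis) and in wild types (horizontal axis), coloured by the contrast that called them, with a dashed line at equal differences. Of the called probe sets, 3 were called in both contrasts, and Smarcc1 and Smarca4 lie at the top, at 1.16 and 0.98 in mutants.

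Between mutants, SWI/SNF genes gave the largest differences, while between wild types Chd8 (-0.69) and Rbbp4 (-0.68) did. Smarca4, the catalytic ATPase, read 11.07, 10.88, 11.19 and 10.93 in BALB/cCrl mutants and 9.96, 10.22, 10.13 and 9.84 in FVB/N mutants in probe set 1426805_at. Every BALB/cCrl mutant lay above every FVB/N mutant, by 0.98 (SE 0.12), or 1.97-fold (limma adjusted p = 1.0e-05). In wild types the same probe set read 10.51, 10.97, 10.99 and 10.63 in BALB/cCrl and 10.06, 10.49, 10.63 and 10.43 in FVB/N, and these groups overlapped, with a difference of 0.37 (SE 0.12, limma adjusted p = 0.073). The brighter probe set of the gene, 1426804_at, showed a smaller difference between mutants, 0.22 (SE 0.06, limma adjusted p = 0.016), with FVB/N mutant 1 at 12.05 among BALB/cCrl mutants at 12.02 to 12.15. That call was lost without BALB/cCrl mutant 3, without the intensity trend and in a fit of the 8 mutant arrays alone. Smarca2, the alternative ATPase, was called in no contrast.

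Smarcc1 was higher in BALB/cCrl mutants by all 4 of its probe sets. In 1423417_at the mutants read 9.87, 9.72, 10.12 and 9.82 in BALB/cCrl and 8.46, 8.98, 9.06 and 8.39 in FVB/N, a difference of 1.16 (SE 0.13), or 2.24-fold (limma adjusted p = 2.5e-06). The wild types read 9.54, 9.80, 9.86 and 9.61 in BALB/cCrl and 8.95, 9.11, 9.15 and 9.19 in FVB/N, a difference of 0.60 (SE 0.13), or 1.52-fold (limma adjusted p = 0.0043). Thus every BALB/cCrl array lay above every FVB/N array, whatever the genotype. In 1423416_at, the brightest probe set, BALB/cCrl mutants at 12.43, 12.53, 12.49 and 12.42 stood above the FVB/N mutants given above by 0.86 (SE 0.11, limma adjusted p = 1.8e-05). BALB/cCrl wild types, at 12.26, 12.39, 12.42 and 12.28, stood above FVB/N wild types without overlap, by 0.27 (SE 0.11), which missed the threshold (limma adjusted p = 0.17).

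The other 2 Smarcc1 probe sets behaved less alike. In 1455246_at, BALB/cCrl mutants read 10.12, 9.91, 10.31 and 10.06 and FVB/N mutants 9.67, 9.17, 9.28 and 10.00, a difference of 0.57 (SE 0.13, limma adjusted p = 0.0074). Here FVB/N mutant 4 was the highest of its group and overlapped BALB/cCrl, while in the other 2 well-measured probe sets it was the lowest. In 1459824_at all FVB/N mutants and wild types lay within the Y-linked range, so that a bound against the upper end of that range was given. By it, BALB/cCrl mutants were at least 1.21-fold higher and BALB/cCrl wild types at least 1.22-fold higher, and these bounds were not tested. The measured means, which limma compared, were 4.81 in BALB/cCrl mutants and 4.33 in FVB/N mutants (limma adjusted p = 0.0020). In wild types they were 4.81 in BALB/cCrl and 4.27 in FVB/N (limma adjusted p = 9.1e-04). In the authors' gcRMA values the call between wild types was lost (limma adjusted p = 0.47). None of the other 6 core subunits, Smarcb1, Smarcc2, Smarcd1, Smarcd2, Smarcd3 and Smarce1, was called in a strain contrast.

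**Figure D3:**
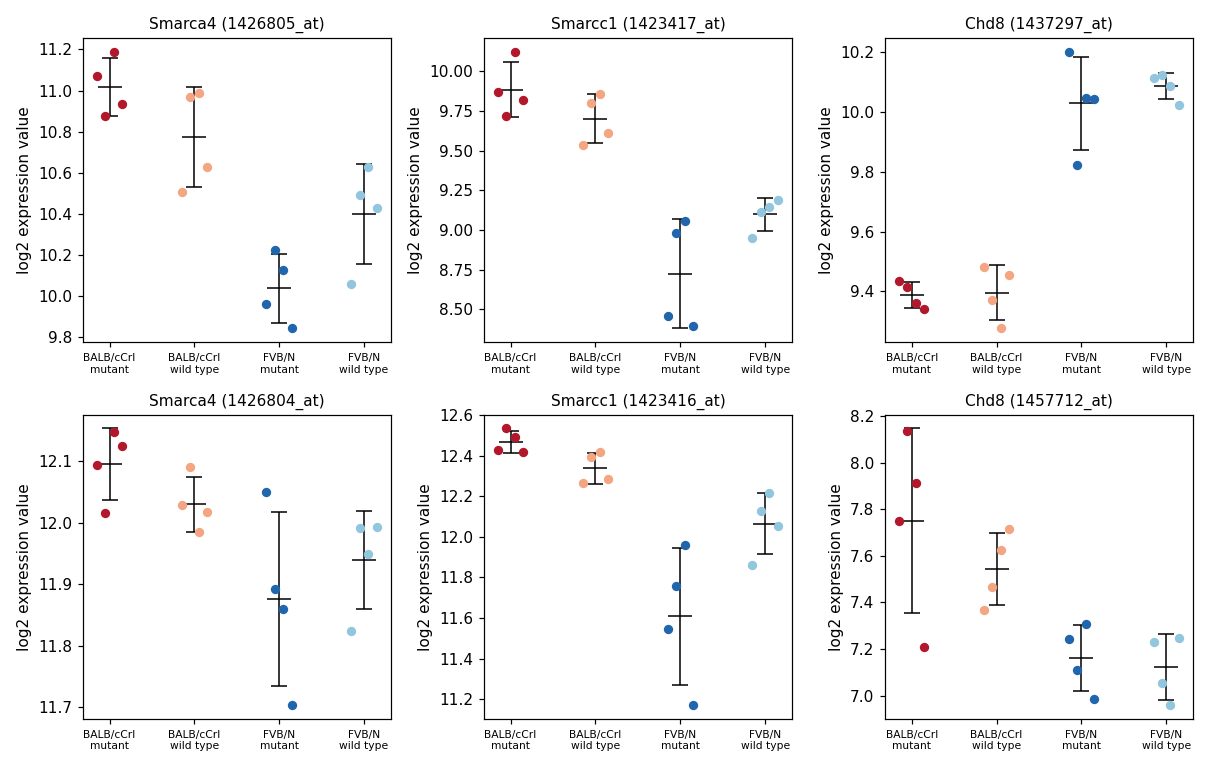
Log2 expression values of each array for 2 probe sets each of Smarca4, Smarcc1 and Chd8 in the 4 groups, with group means and SD bars (n = 4 each). BALB/cCrl arrays lie above FVB/N arrays for Smarcc1 and below them for Chd8 1437297_at, while Chd8 1457712_at runs the other way.

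Among the subunits specific to BAF or PBAF, 1 of 3 Pbrm1 probe sets was called higher in BALB/cCrl mutants, and 1 probe set each of Brd7 and Arid2 differed between wild types. Pbrm1 (1427266_at) read 11.31, 11.47, 11.41 and 11.21 in BALB/cCrl mutants and 11.02, 11.00, 11.15 and 10.67 in FVB/N mutants, a difference of 0.39 (SE 0.09, limma adjusted p = 0.0079) with no overlap. The other Pbrm1 probe sets differed by 0.27 (1426878_at, limma adjusted p = 0.066) and, in the brightest, 1426877_a_at, by 0.00 (SE 0.08). Between wild types 1427266_at differed by 0.00 (SE 0.09). Brd7 (1448521_at) read 10.78, 10.86, 10.74 and 10.81 in BALB/cCrl wild types and 10.65, 10.60, 10.57 and 10.60 in FVB/N wild types, a small difference of 0.19 (SE 0.04, limma adjusted p = 0.0073) with no overlap. Arid2 (1432483_at) was lower in BALB/cCrl wild types by 0.29 (difference -0.29, SE 0.08, limma adjusted p = 0.037), with values of 7.22 to 7.39 against 7.44 to 7.69 in FVB/N wild types. The Arid2 call was lost when any 1 of 6 arrays was left out, BALB/cCrl wild types 1, 3 and 4 and FVB/N wild types 1, 3 and 4, and in the authors' gcRMA values (limma adjusted p = 0.22). The other 3 Arid2 probe sets differed by -0.09 to 0.01, and the other Brd7 probe set by 0.19 without a call. Of the actin-like and PHD finger subunits, Dpf1, of the neuronal form, was called between mutants (1420529_at, 0.29, SE 0.09, limma adjusted p = 0.047), and this call held only without BALB/cCrl mutant 4 among the 16 fits that left out 1 array.

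The CHD genes held a strain difference that was called in both genotypes, in a gene whose probe sets opposed each other. Chd8, a remodeller known to act on Wnt and p53 targets, read 9.43, 9.41, 9.36 and 9.34 in BALB/cCrl mutants and 10.20, 9.82, 10.05 and 10.04 in FVB/N mutants in probe set 1437297_at. The difference was -0.64 (SE 0.07, limma adjusted p = 1.6e-06). In wild types it read 9.48, 9.37, 9.28 and 9.46 in BALB/cCrl and 10.11, 10.12, 10.09 and 10.03 in FVB/N, a difference of -0.69 (SE 0.07, limma adjusted p = 5.9e-07). All 8 BALB/cCrl arrays lay below all 8 FVB/N arrays, and the interaction was 0.05 (SE 0.10). In contrast, the dimmer probe set 1457712_at was higher in BALB/cCrl mutants by 0.59 (SE 0.14, limma adjusted p = 0.0095), at 7.75, 8.14, 7.91 and 7.21 against 7.24, 7.11, 7.31 and 6.99 in FVB/N mutants. BALB/cCrl mutant 4 lay within the FVB/N range there. In wild types 1457712_at was also higher in BALB/cCrl, by 0.42, but was not called. It read 7.37 to 7.71 in BALB/cCrl wild types and 6.96 to 7.25 in FVB/N wild types, without overlap. The remaining Chd8 probe sets, 1443900_at and 1457580_at, were called in neither strain contrast. The direction of Chd8 between the strains thus depends on the probe set, and was not settled for the gene.

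Chd2 and Chd7 were higher in BALB/cCrl than in FVB/N mutants, each by 1 of its 2 probe sets. Chd2 (1445843_at) read 8.11, 8.20, 7.96 and 7.92 in BALB/cCrl mutants and 7.51, 7.65, 7.50 and 7.26 in FVB/N mutants, a difference of 0.57 (SE 0.10, limma adjusted p = 4.9e-04). Its other probe set differed by 0.16 (SE 0.07, limma adjusted p = 0.17). Chd7, the gene mutated in human CHARGE syndrome, read 10.14, 10.35, 10.23 and 9.97 in BALB/cCrl mutants and 9.70, 9.74, 9.97 and 9.32 in FVB/N mutants in 1437745_at. Groups met at 9.97, where BALB/cCrl mutant 4 lay above FVB/N mutant 3 by less than a rounding step, and the difference was 0.49 (SE 0.11, limma adjusted p = 0.0054). Chd3, an ATPase of NuRD, differed by 0.32 (SE 0.10, limma adjusted p = 0.044) between mutants, and that call was lost in 12 of the 16 fits that left out 1 array. Chd1 (1457473_at), which reads methylated histones of active genes, was higher in BALB/cCrl wild types by 0.29 (SE 0.08, limma adjusted p = 0.027). It was lost without BALB/cCrl wild type 1 or 4, without FVB/N wild type 3 or 4, and in the authors' gcRMA values (limma adjusted p = 0.11), and the other 3 Chd1 probe sets differed by 0.08 to 0.18.

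In NuRD, 1 of 5 probe sets each of Gatad2b and Gatad2a were called higher in BALB/cCrl mutants. Gatad2b (1425075_at) read 10.32, 10.35, 10.05 and 9.83 in BALB/cCrl mutants, against the FVB/N mutant values given above, a difference of 0.54 (SE 0.13, limma adjusted p = 0.0074). FVB/N mutant 2, at 9.89, lay above BALB/cCrl mutant 4, and the other 4 Gatad2b probe sets differed by -0.06 to 0.27. Gatad2a (1423992_at) differed by 0.21 (SE 0.06, limma adjusted p = 0.021), but of its other 4 probe sets 1 differed by 0.18 and 3 by -0.17 to -0.06, so that the gene has no settled direction. The scaffold Mta1 differed by 0.25 (SE 0.08, limma adjusted p = 0.047) in 1417295_at and by -0.06 in its other probe set. The deacetylase Hdac2 was lower in BALB/cCrl mutants by 0.14 (difference -0.14, SE 0.04, limma adjusted p = 0.033) in 1445684_s_at, at 12.12 to 12.25 against 12.23 to 12.41 in FVB/N mutants, while its probe set 1439704_at differed by 0.56 (SE 0.20, limma adjusted p = 0.073). The Gatad2a call was lost without BALB/cCrl mutant 1 or 3 or FVB/N mutant 2 or 4. The Hdac2 call was lost without any 1 of BALB/cCrl mutants 1, 3 and 4 and FVB/N mutants 1, 2 and 3, and the Mta1 call in 10 of the 16 fits that left out 1 array. Rbbp4 (1456260_at) was called between wild types, where BALB/cCrl was lower by 0.68 (difference -0.68, SE 0.17, limma adjusted p = 0.013). FVB/N wild types read 7.58, 7.75, 7.93 and 7.72 beside the BALB/cCrl values given above, the call was lost without BALB/cCrl wild type 1 or 2 or FVB/N wild type 3 and in the authors' gcRMA values (limma adjusted p = 0.34). The other 3 Rbbp4 probe sets, at -0.05 to 0.12, were not called.

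Of the INO80 and SWR genes, the ATPases Ep400 and Ino80 were each higher in BALB/cCrl mutants by 1 probe set, without overlap, while the ATPase Srcap was not called. Ep400 (1437020_at) read 8.67, 8.37, 8.65 and 8.18 in BALB/cCrl mutants and 7.92, 7.82, 7.75 and 7.72 in FVB/N mutants, a difference of 0.67 (SE 0.12, limma adjusted p = 7.7e-04). The other 6 Ep400 probe sets differed by -0.05 to 0.29 and were not called. Ino80 (1448965_at) read 7.09, 6.91, 7.05 and 6.97 in BALB/cCrl mutants and 6.59, 6.66, 6.70 and 6.24 in FVB/N mutants, a difference of 0.46 (SE 0.11, limma adjusted p = 0.0093). Its brighter probe set differed by 0.02 (SE 0.07). Neither gene was called between wild types, where these probe sets differed by 0.04 and 0.06. The paired helicases Ruvbl1 and Ruvbl2, shared by both complexes, were called in no contrast. Ruvbl1 is the only member on chromosome 6, which carries Cecr2, and differed by 0.00 and 0.02 (SE 0.06 each) between mutants and wild types of BALB/cCrl and FVB/N.

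Of the other SNF2 genes, Atrx and Smarcal1 were called and Hells, a helicase needed for DNA methylation, was not. Atrx was higher in BALB/cCrl than in FVB/N mutants by 2 of its 7 probe sets. These were 1420947_at (7.92, 8.05, 7.76 and 7.39 in BALB/cCrl mutants, a difference of 0.69, SE 0.18, limma adjusted p = 0.017) and 1450051_at (0.72, SE 0.19, limma adjusted p = 0.018). In 1450051_at the mutants read 7.47, 7.42, 7.41 and 6.78 in BALB/cCrl and 6.60, 6.94, 6.65 and 5.995 in FVB/N, so that BALB/cCrl mutant 4 and FVB/N mutant 4 were each the lowest of their group. Both calls were lost without FVB/N mutant 4 and without BALB/cCrl mutant 1, the first also without BALB/cCrl mutant 2 and the second without BALB/cCrl mutant 3. The brightest Atrx probe set, 1433537_at, differed by -0.01 (SE 0.05), with a 95% interval of -0.11 to 0.09. A further one, 1453734_at, was called between wild types, at 8.67, 8.74, 8.68 and 8.85 in BALB/cCrl and 8.39, 8.48, 8.37 and 8.54 in FVB/N (0.29, SE 0.07, limma adjusted p = 0.010). That call was lost in the authors' gcRMA values (limma adjusted p = 0.054). Between wild types the 7 Atrx probe sets ran from -0.37 (1420947_at, lower in BALB/cCrl and not called) to 0.29. Smarcal1, which reanneals DNA at stalled replication forks, was lower in BALB/cCrl mutants by 0.22 in 1455139_at (difference -0.22, SE 0.07, limma adjusted p = 0.041), a call lost in 9 of 16 fits without 1 array.

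Probe sets of 1 gene were seldom all called. Of the 16 genes called between mutants, 15 had more than 1 probe set, and in 2 of these, Smarcc1 and Smarca4, every probe set was called. In 8 of the 15 all probe sets had the same sign, and in 1, Chd8, probe sets were called both ways. Between wild types, none of the 7 called genes had every probe set called, and 3 had all probe sets of 1 sign. With each gene represented only by its brightest probe set, 9 of the 47 members were called between mutants (19.1%), against 12.1% of all genes treated alike, and 2 between wild types (4.26%), against 7.25%. The probes' sequences were not used here, and why probe sets of a gene differ was not tested.

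**Figure D4:**
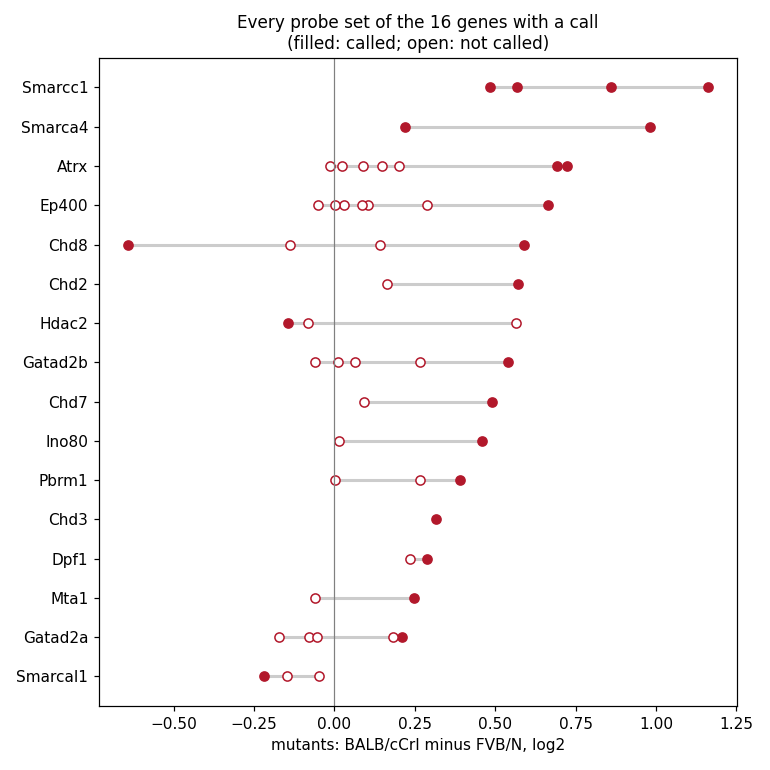
Strain difference between mutants, BALB/cCrl minus FVB/N (log2, horizontal axis), of every probe set of the 16 genes with a call, filled where called and open where not, with grey lines spanning a gene's probe sets. All points of Smarcc1 and Smarca4 are filled, those of Atrx and Ep400 are mostly open near 0, and Chd8 has filled points on both sides of 0.

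Few remodellers were called in both strain contrasts. The 3 such probe sets, Chd8 1437297_at and Smarcc1 1423417_at and 1459824_at, had the same direction in each. They make up 37.5% of the 8 calls between wild types and 13.6% of the 22 between mutants, where over all probe sets 67.5% and 42.1% of calls were shared.

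Single arrays moved some of the calls between mutants. Of the 19 probe sets called higher in BALB/cCrl mutants, FVB/N mutant 4 was the lowest of all 16 arrays in 14 (73.7%), against 31.4% of the 2201 such calls over all probe sets. Without that array, 22 remodeller probe sets were again called, 16 of them from the original 22, and the Smarcc1 and Smarca4 differences remained called. Leaving out both FVB/N mutants 3 and 4, chosen after the data were seen, gave 16 calls with 11 of the original. The count was 14 without BALB/cCrl mutant 1 and also 14 without BALB/cCrl mutant 3. Calls over all probe sets moved too, from 3514 to 4947 in the fits that left out 1 array. In every one of the 16 fits that left out 1 array, and in the other alternatives that measured them, the Chd8 (1437297_at), Smarcc1, Smarca4 (1426805_at), Chd2, Ep400, Chd7 and Pbrm1 differences between mutants were called with the same sign. Values of Gapdh 3′ over 5′ for the pair of mutant groups within 1 table were not analysed here, and the part of RNA quality was not tested.

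**Figure D5:**
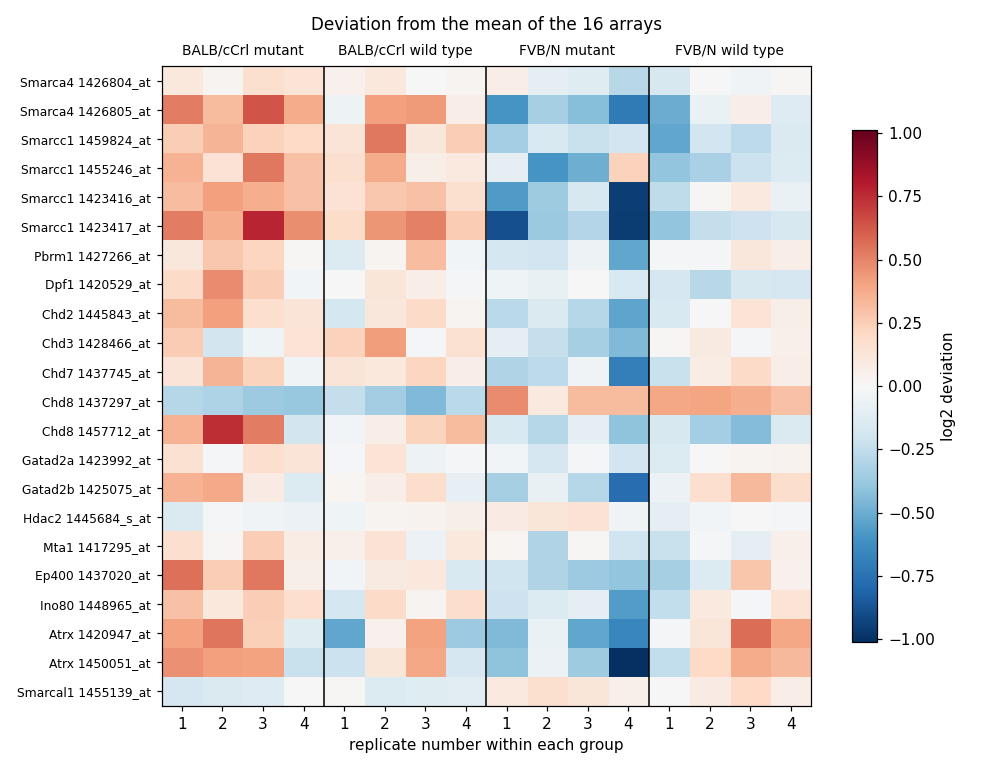
Deviation of each array from the mean of the 16 arrays (log2, colour) for the 22 probe sets called between mutants, with the 4 arrays of each group side by side and rows ordered by complex. FVB/N mutant 4 is the darkest blue column, being the lowest array in 14 of the 19 probe sets called higher in BALB/cCrl mutants, and Chd8 1437297_at splits the strains in both genotypes.

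Further genes of these pathways were not called by genotype either. Of 44 other subunits and relatives listed, 43 were measured, by 107 probe sets. Between mutants and wild types limma called 0 in BALB/cCrl, against 0.02% of all probe sets, and 0 in FVB/N, against 0.595%. At an unadjusted p under 0.05 the counts were 13 of 107 in BALB/cCrl, against 9.54% of all probe sets, and 11 of 107 in FVB/N, against 12.1%. Between mutants of the 2 strains 11 of 107 were called (10.3%), 6 higher and 5 lower in BALB/cCrl, beside 10.8% of all probe sets. Between wild types 5 of 107 were called (4.67%), 3 higher and 2 lower, beside 6.74%.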

How the data were processed

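Total RNA of 16 single embryos was hybridised to Affymetrix mouse arrays. The deposited series table gives log2 values of 16 arrays. That the authors normalised these arrays together was assumed, as the sources used here do not state it. The arrays' medians lay between 6.35 and 6.42. Per the submitters' processing notes, RMA and GCRMA were used, with no versions and no word on which values each made. The authors also deposited log2 values from gcRMA for 3 pairs of groups, used as an alternative, where the pair of mutant groups was not analysed here. Arrays carry no sequencing depth, and their number, 4 per group, limits the precision. The labels call the arrays of a group biological replicates, 1 embryo each.

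Probe sets were named through the platform annotation, in which 34945 of 45037 had 1 gene symbol, 932 several and 9160 none. A probe set naming Ino80 together with other genes was left out. One fit in limma 3.58.1 (under R 4.3.3, with version 1.17.8 of data.table) held 1 mean per group, no covariates and a spread that followed intensity. Two-sided p-values of 6 contrasts were adjusted (Benjamini-Hochberg) across all 45037, with calls at an adjusted p under 0.05. SE is that of the fit. Data were simulated for the FVB/N mutant and wild type comparison, over 45037 probe sets. The fit called 75 of 100 differences of 0.5 and 96 of 100 of 1, with 6 false calls. The simulated noise was drawn independently for each probe set and array, with no outlying array, so sensitivity on the real arrays may differ. The members and lists were chosen with earlier results of these data known. Genes named are each called member, the smallest p per complex in each genotype contrast, and probe sets without overlap in both strains. Others named (the non-overlapping probe sets of 1 strain, the smallest p of the interaction, companion probe sets of called genes, calls gained in alternatives, genes stated as not called) were chosen after their values were seen. So were Uchl5, Brd8 and Ino80d, outside the members, which were picked for their strain differences. Same-numbered arrays of compared groups had correlated deviations of -0.15 to 0.17 and no contrast had all above 0.1, so the numbers were not taken as pairs. Between wild types of the strains, however, same-numbered arrays correlated at 0.03 to 0.12 and others at -0.11 to 0.10. There 5 of 8 arrays correlated best with their own number. With the number as a block, 7 of the 8 calls between wild types were kept. Between mutants and wild types of BALB/cCrl, arrays of different numbers correlated at -0.23 to 0.39, the highest being above any same-numbered pair. The fit took arrays as independent, and the source of that correlation was not tested. Alternatives were other normalisations, array weights, no intensity trend, a mean level filter of 5, fits of 8 arrays, 1 probe set per gene, a replicate block and single arrays left out. Python 3.11.15 with pandas 2.3.3 and matplotlib 3.10.9 read promoters and drew figures.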

Additional observations from a re-analysis of the deposited data

Results flagged for a closer look

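Of 132 sets of 4 arrays tested for the named probe sets, 6 held an array far from the other 3 of its group (4.55%), where chance gives about 1 in 20. Rbbp4 (1456260_at) had this in both mutant groups. BALB/cCrl mutant 4 read 7.21 with the other 3 at 7.77 to 7.79, and FVB/N mutant 4 read 7.36 with the others at 7.67 to 7.73. Atrx (1450051_at) read 6.78 in BALB/cCrl mutant 4, where the others were at 7.41 to 7.47. Smarcb1 (1435856_x_at) read 9.47 in FVB/N mutant 4, against 9.74 to 9.78 in the others. Ep400 (1426860_at) read 9.84 in FVB/N wild type 1, against 10.03 to 10.06, and Dpf1 (1420529_at) read 5.35 in FVB/N wild type 2, against 5.46 to 5.46. In each case the lone array was the lowest of its group.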

How the results depend on the processing

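No count of called remodellers changed direction under the alternatives. In FVB/N, mutants against wild types, 0 called became 2 with arrays centred on their medians, 1 with only the 8 arrays, and 2 without BALB/cCrl mutant 4 and BALB/cCrl wild type 1, an omission chosen after the data were seen. With the replicate number as a block, 2 were called there (Smarcc1 -0.46 and Gatad2b -0.52, limma adjusted p = 0.022 and 0.030). Under that block no other comparison's count moved by over 1.5 times. The authors' gcRMA values gave 5 calls between wild types of the strains, where 8 had been called, and kept only 3 of those 8, Chd8 (1437297_at), Smarcc1 (1423417_at) and Brd7, while the other 5 had the same sign. One probe set per gene gave 9 between mutants of the strains and 2 between wild types, since fewer probe sets were counted. For the other moves the cause was not tested. Leaving out single arrays gave 0 to 1 calls in BALB/cCrl, 0 to 1 in FVB/N, 0 to 2 for the interaction, 0 to 1 for the mean effect, 6 to 10 between wild types and 14 to 24 between mutants. The gcRMA tables could not serve the mutant pair, and neither they nor a fit of 1 pair can give the interaction or the mean effect.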

Other observations

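Outside the 47 members, Uchl5 and Brd8 held the widest called strain differences of the pathway, in both genotypes. Uchl5 (1419453_at), a deubiquitinase bound to INO80 and to the proteasome, was higher in BALB/cCrl by 2.16 (SE 0.17) between mutants and by 2.29 (SE 0.17) between wild types, or 4.48-fold and 4.90-fold (limma adjusted p = 2.3e-08 and 9.3e-09). Brd8, a bromodomain subunit of the complex that holds Ep400, was called both ways: its probe set 1456351_at was higher in BALB/cCrl by 1.54 between mutants and 1.32 between wild types, and 1429526_at was lower, at -0.91 and -0.50. The limma adjusted p were 4.3e-08 and 3.6e-07 for the first and 1.5e-04 and 0.037 for the second. Like Chd8, Brd8 thus has no settled direction. Ino80d, an INO80 subunit, was called between mutants but not between wild types, and was higher in BALB/cCrl mutants by 0.63 (SE 0.15, limma adjusted p = 0.0099).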
